A study of Mus musculus and Mus musculus musculus x Mus musculus castaneus with 8 samples.

Results

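The regions described here are 307 sites inside genes that were called open 48 h after donor fibroblast nuclei had been placed in *Xenopus laevis* oocytes and that lay at least 5000 bp from any peak called in the donor cells. They were taken from the annotation of newly opened genes published with the study, as every peak marked there as lying in a gene body and belonging to a gene other than a Hox gene. That annotation gives 313 pairs of a gene and a peak for 286 of the 495 genes held here, and 6 of the peaks are listed for 2 genes each. All 313 pairs had a peak at the same position in the list of peaks after nuclear transfer (NT). The 307 distinct peaks make up a small part of the 3146 newly opened peaks and of the 8257 peaks after NT.

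Mouse embryonic fibroblasts (MEFs) from a cross of *Mus musculus musculus* with *Mus musculus castaneus* were permeabilized and either assayed directly (1 library) or transplanted into the oocyte germinal vesicle. They were then assayed 48 h later, in oocytes without an added protein (2 libraries) or in oocytes overexpressing Toca1/Fnbp1l, a factor that promotes actin polymerization (1 library). Each of these libraries came from 3000 cells, and 10 NT oocytes were pooled for each of the 2 control NT experiments. The further comparison was C2C12, an established mouse myoblast line of strain C3h, from 50000 cells (2 libraries) and from 1000 cells (2 libraries). C2C12 peaks and the C2C12 list are those from 50000 cells unless the 1000-cell list is named. The assay was ATAC-seq, in which a transposase cuts and tags accessible DNA, so that reads pile up at open sites. Each condition has 1 list of called peaks with a chromosome, a start and an end but no score or read number. Depth is therefore unknown, there is no spread between replicates, and an effect of a treatment cannot be told apart from one of library or depth. Positions are those of the lists, 1-based, and the submitters' processing notes name mm9 as the build.

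Open sites inside genes are of several kinds. Some are enhancers in introns, which bind transcription factors and can act on the gene that holds them or on a neighbour. Others are alternative promoters, or the downstream flank of a promoter whose first exon stays free of nucleosomes. The oocyte nucleus supplies factors to transplanted nuclei that neither replicate their DNA nor divide, so a site that opens there does so on the chromatin that was carried over.

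For 13 of the 286 genes the same annotation also lists a newly opened promoter peak, so that the start of the gene and a site within it were both called open only after NT. Sequences before a start are shown for 3 of them. They were chosen because, by the annotation, the promoter peak covered a transcription start site (TSS). It was also open in the Toca1/Fnbp1l library, and the gene had a single start in the RefSeq table used. These genes, chosen after their values had been seen, are *Myb*, which encodes a transcription factor of blood progenitors, *Itga9*, which encodes an integrin subunit, and *Plekhm2*, which encodes an adaptor that links lysosomes to kinesin. Each sequence is the 250 bases before the start in GRCm38.p6, from RefSeq, on the strand of the gene, with CpG dinucleotides in capitals. The windows lie at chr10:21160985-21161234 on the minus strand for *Myb*, at chr9:118711442-118711691 on the plus strand for *Itga9* and at chr4:141664147-141664396 on the minus strand for *Plekhm2*. The *Itga9* window appears to lie at a start inside the gene, not at its promoter peak. The annotation gives TSS distances of 36553 and 62406 bp for 2 *Itga9* gene-body peaks, which point to a start between them. Their gaps to the promoter peak were 67804 and 167004 bp.
Myb: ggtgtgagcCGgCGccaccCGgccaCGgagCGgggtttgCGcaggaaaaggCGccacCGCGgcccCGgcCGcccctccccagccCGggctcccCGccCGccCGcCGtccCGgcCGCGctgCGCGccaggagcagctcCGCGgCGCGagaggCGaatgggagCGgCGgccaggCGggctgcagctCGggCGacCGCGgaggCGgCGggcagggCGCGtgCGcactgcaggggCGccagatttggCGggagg
Itga9: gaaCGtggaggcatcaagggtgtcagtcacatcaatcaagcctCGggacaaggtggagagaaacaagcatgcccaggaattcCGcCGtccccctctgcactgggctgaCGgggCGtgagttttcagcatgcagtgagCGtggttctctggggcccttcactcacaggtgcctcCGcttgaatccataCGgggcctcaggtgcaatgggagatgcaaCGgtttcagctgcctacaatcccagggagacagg
Plekhm2: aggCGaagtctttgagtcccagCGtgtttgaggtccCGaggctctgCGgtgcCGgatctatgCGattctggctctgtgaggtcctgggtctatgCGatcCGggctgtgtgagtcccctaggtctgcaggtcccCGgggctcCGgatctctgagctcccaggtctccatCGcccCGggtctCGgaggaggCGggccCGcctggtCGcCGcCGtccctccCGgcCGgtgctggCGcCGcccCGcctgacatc

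The window of *Myb* held 40 CpG dinucleotides, that of *Plekhm2* held 23 and that of *Itga9* held 10. The *Itga9* count is therefore not read as that of its newly opened promoter. The median over the 32851 windows of the RefSeq table was 6, with 1.31% of them holding 40 or more, 13.3% holding 23 or more and 37.8% holding 10 or more. The *Myb* promoter peak was 628 bp wide (chr10:20880543-20881170), and 2 gene-body peaks of 212 bp and 280 bp lay 1497 bp and 15527 bp from it. Toca1/Fnbp1l peaks overlapped the promoter peak and both gene-body peaks of *Myb*. The *Itga9* promoter peak (563 bp, chr9:118515649-118516211) was overlapped by peaks of the Toca1/Fnbp1l and C2C12 lists, whereas the 3 gene-body peaks of the gene, of 199, 242 and 258 bp, were overlapped by neither. In *Plekhm2* the promoter peak of 304 bp was overlapped by both lists and the gene-body peak of 164 bp by neither. Overlap with the Toca1/Fnbp1l list was a condition for choosing the promoter peaks of these genes. Over the 13 genes, Toca1/Fnbp1l peaks overlapped 6 promoter peaks and 4 of the 17 gene-body peaks, and C2C12 peaks overlapped 4 promoter peaks and 0 gene-body peaks. A count of 0 in 17 allows a share of up to 17.6%, taken as 3 in 17. The shares over all gene-body peaks were 14.7% for Toca1/Fnbp1l and 4.89% for C2C12, against 44.9% and 35.1% over all promoter peaks. The gene-body peaks among the 4 were those of *Myb*, of the solute carrier gene *Slc37a3* and of *Galnt6*. The last encodes an enzyme that starts O-linked glycosylation.

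The gene-body peaks were narrow. Their widths ran from 150 bp to 577 bp, with a median of 241 bp and quartiles of 203 bp and 327 bp. The median was 290 bp for the 225 newly opened promoter peaks, 237 bp for the 1245 intergenic newly opened peaks and 291 bp for all peaks after NT. The widest was that of *Ppp1r3g*, a regulatory subunit of protein phosphatase for glycogen metabolism (577 bp, chr13:36060509-36061085). It was followed by peaks in *Pcnxl2* (560 bp), *Efcab6* (549 bp), *Gprin1* (540 bp) and *Satb1* (536 bp), the last encoding a chromatin organizer of T cells. The 10 widest also included those in *Dmrt3* (530 bp), *Atp6v1c2* (504 bp), *Prox1* (481 bp) and *Cspg5* (470 bp). Of these 10 widest peaks, 4 were overlapped by a Toca1/Fnbp1l peak and 3 by a C2C12 peak, beside 14.7% and 4.89% over all gene-body peaks and 16.5% and 8.26% over all newly opened peaks. *Prox1*, a homeobox regulator of lymphatic and liver development, was in neither set, with the nearest Toca1/Fnbp1l peak 38404 bp away.

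Distance from donor sites was part of how the peaks were chosen and is given only to describe them. Gaps were counted as the bases between peak edges. The gap to the nearest donor MEF peak ran from 5401 bp to 925375 bp, with a median of 30655 bp. The peaks closest to the limit of 5000 bp were in *Cfi* (5401 bp), which encodes complement factor I, *Tspan13* (5464 bp) and *Cfap77* (5528 bp), while the peaks after NT just on the other side of the limit lay 4989, 4993 and 4993 bp from a donor peak. *Zic1*, a zinc finger regulator of neural development, had a gap of 809147 bp.

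Distances to a TSS were copied from the annotation. They ran from 515 bp, in *Lrfn1*, to 347655 bp, in *Tmem132d*, with a median of 9528 bp. Promoter peaks of the same annotation reached at most 492 bp. After *Lrfn1*, the peaks nearest to a TSS were in *1110038F14Rik* (526 bp), *Zfp933* (531 bp), *Cfap77* (535 bp) and *Sema7a* (536 bp). The others farthest from one were in *Nkain3* (251922 bp), *Ldb2* (246696 bp), *Ntrk2* (153351 bp) and *Fstl4* (150907 bp). Of the 307 peaks, 50 lay under 2000 bp from a TSS, 158 under 10000 bp and 25 at 50000 bp or more. The copied distance is not always the distance to the start where the promoter peak of the gene lies. For 6 of the 17 gene-body peaks of the 13 genes with both kinds of peak, it was shorter than the gap to the promoter peak by more than 1000 bp. In *Itga9* the peak 257256 bp from the promoter peak had a copied distance of 61988 bp, and in *Galnt6* the values were 34102 bp and 7009 bp.

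**Figure D1:**
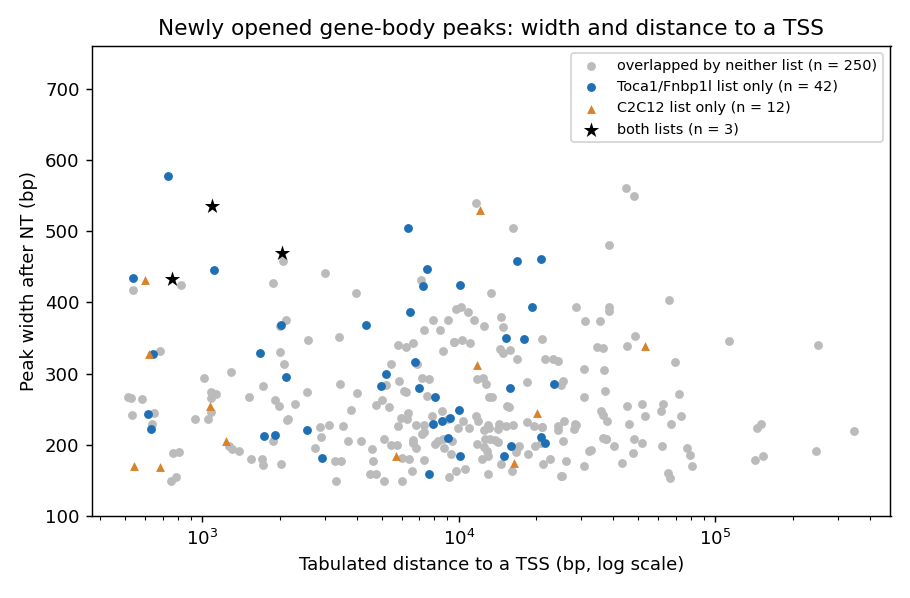
Each point is 1 of the 307 gene-body peaks, with its distance to a TSS as copied from the annotation on the x axis (bp, log scale) and its width after NT on the y axis (bp). Colors and shapes mark overlap by at least 1 bp with the Toca1/Fnbp1l list only (42 peaks), the C2C12 list from 50000 cells only (12), both (3) or neither (250), and the 3 peaks found in both lists are all at least 433 bp wide and within 2044 bp of a TSS.

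The list from Toca1/Fnbp1l-overexpressed oocytes, which was not used to choose the peaks, tells how many of them were called again in another NT library. A Toca1/Fnbp1l peak overlapped 45 of the 307 gene-body peaks by at least 1 bp (14.7%, 95% Wilson interval 11.1% to 19.1%), against 16.5% of all newly opened peaks and 44.3% of all peaks after NT. The intervals cover counting error over peaks only. At the level of genes, 45 of 286 had such a peak (15.7%, interval 11.97% to 20.40%). The 45 overlapped peaks had a median width of 296 bp, and the other 262 had a median of 236.5 bp. The Toca1/Fnbp1l peak was the wider of the pair in 38 of 45 cases, with a median of 512 bp, and held the whole control peak in 21. At *Rbm12* and *Cpne1*, neighbouring genes that share this peak, a control peak of 327 bp lay within a Toca1/Fnbp1l peak of 1476 bp. At *Sema7a*, which encodes a membrane-bound semaphorin, only 10 bp were shared. Peaks without overlap were mostly far from any Toca1/Fnbp1l peak, at a median gap of 22469.5 bp, and 30 of the 262 had one within 5000 bp.

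C2C12 myoblasts are a second somatic cell type, so overlap with their list shows which sites absent from the donor MEF list were open in another cultured mouse line. A C2C12 peak overlapped 15 of the 307 gene-body peaks (4.89%, interval 2.98% to 7.90%), against 8.26% of all newly opened peaks and 50.6% of all peaks after NT. The C2C12 list from 1000 cells overlapped 5 (1.63%), against 1.75% of all newly opened peaks and 8.57% of all peaks after NT. Both the 50000-cell C2C12 and the Toca1/Fnbp1l list overlapped 3 peaks, and neither overlapped 250 (81.4%). Of the 307, 249 were also at least 5000 bp from every peak of the 50000-cell C2C12 list, and 37 of these 249 were overlapped by a Toca1/Fnbp1l peak.

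**Figure D2:**
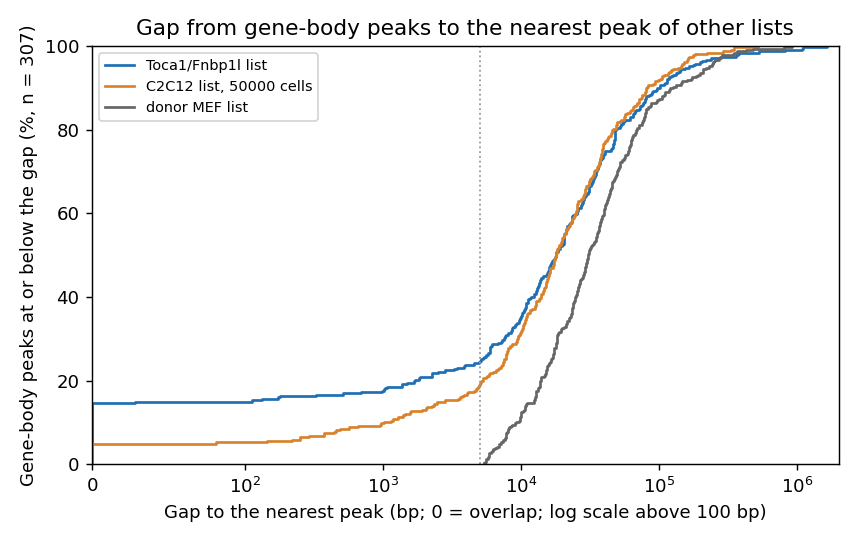
Cumulative share of the 307 gene-body peaks (y axis, %) by gap to the nearest peak of 3 other lists (x axis, bp, log scale above 100 bp, with 0 for overlap). The curves start at 14.7% for the Toca1/Fnbp1l list and 4.89% for the C2C12 list, and the donor MEF curve starts beyond the dotted line at 5000 bp because the peaks were chosen that way.

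The 3 peaks found in both lists were in *Il17d*, *Satb1* and *Cspg5*. The peak of *Il17d*, which encodes a cytokine of the interleukin 17 family, was 433 bp wide (chr14:58144427-58144859) and 761 bp from a TSS. All of its 433 bp were shared with a Toca1/Fnbp1l peak of 841 bp, and 413 bp were shared with a C2C12 peak of 666 bp. The peak of *Satb1* (chr17:51952473-51953008), 1094 bp from a TSS, shared 50 bp with a Toca1/Fnbp1l peak and 231 bp with a C2C12 peak. It lay 229423 bp from the nearest donor MEF peak. The peak of *Cspg5*, which encodes a brain chondroitin sulfate proteoglycan, was 470 bp wide (chr9:110148331-110148800) and 2044 bp from a TSS, and it shared 389 bp and 186 bp with the 2 lists.

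Newly opened sites in gene bodies were compared with newly opened promoters, which were selected by the same rule on donor peaks. Toca1/Fnbp1l peaks overlapped 101 of 225 promoter peaks (44.9%), a difference of -30.2 percentage points for gene-body peaks (95% Newcombe interval -37.6 to -22.5). C2C12 peaks overlapped 79 promoter peaks (35.1%), which again gave a difference of -30.2 points (interval -36.9 to -23.6). Promoter peaks were wider, so both were split into 5 width classes. The gene-body share was the lower in each class for both lists. For the Toca1/Fnbp1l list the difference was -10.9 points at 150 to under 200 bp (interval -29.1 to 2.07), -32.5 points at 200 to under 250 bp (interval -47.0 to -17.3) and -21.8 points at 400 bp or more (interval -41.9 to 0.841). For the C2C12 list it was -12.3 points in the narrowest class (interval -30.4 to 0.411) and -31.2 points in the widest (interval -47.8 to -9.08). Among peaks under 20000 bp from a donor peak the differences were -26.5 points (interval -38.4 to -13.6) for Toca1/Fnbp1l and -28.9 points (interval -39.7 to -17.6) for C2C12.

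**Figure D3:**
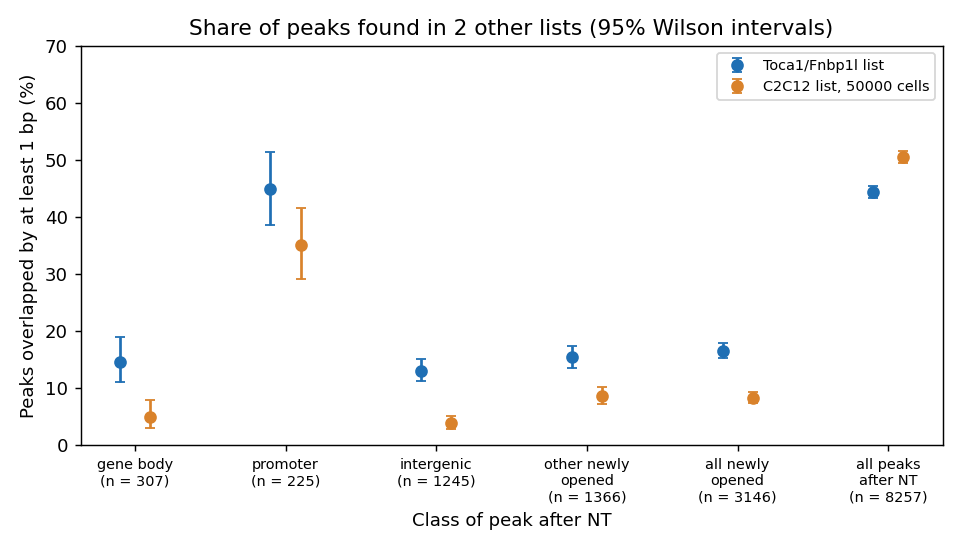
Share of peaks after NT overlapped by at least 1 bp (y axis, %) in the Toca1/Fnbp1l list or the C2C12 list from 50000 cells, for each class of peak (x axis). Bars are 95% Wilson intervals over peaks, and gene-body peaks (14.7% and 4.89%) lie below promoter peaks (44.9% and 35.1%) for both lists.

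Against the intergenic newly opened peaks no difference was found beyond counting error. Toca1/Fnbp1l peaks overlapped 163 of 1245 intergenic peaks (13.1%, difference 1.57 points, interval -2.48 to 6.30) and C2C12 peaks overlapped 48 (3.86%, difference 1.03 points, interval -1.23 to 4.19). In the class of 400 bp or more, 5 of 28 gene-body peaks and 7 of 117 intergenic peaks were overlapped by a C2C12 peak, a difference of 11.9 points (interval 0.306 to 29.9). Leaving out 3 Hox gene-body peaks, 1366 newly opened peaks were in none of these classes. Of them 15.4% were overlapped by Toca1/Fnbp1l peaks (difference -0.789 points, interval -4.84 to 3.97) and 8.64% by C2C12 peaks (difference -3.75 points, interval -6.24 to -0.435).

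**Figure D4:**
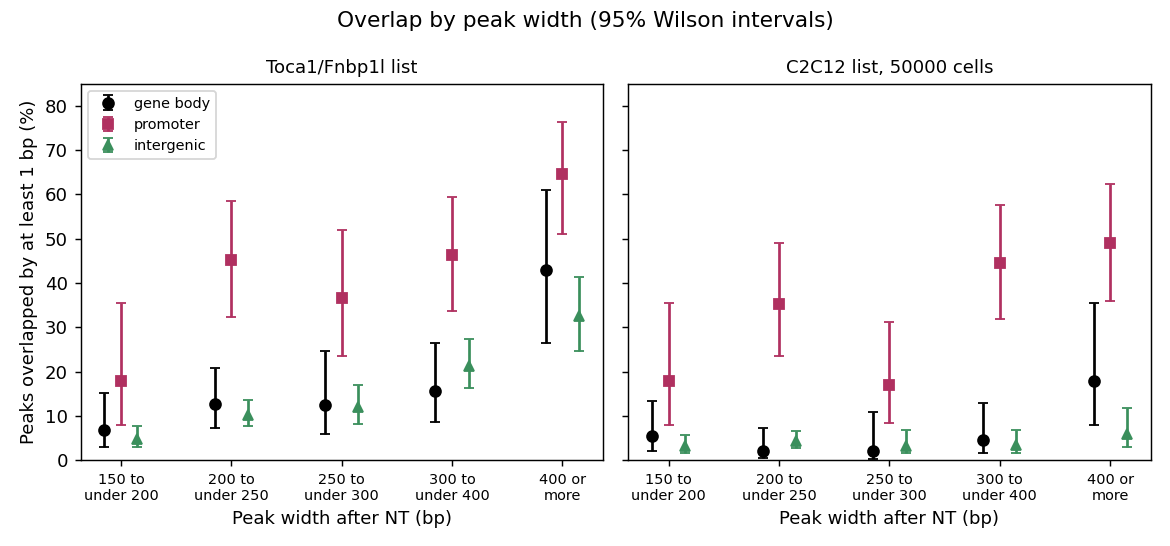
Share of newly opened peaks overlapped by at least 1 bp (y axis, %) in 5 classes of peak width (x axis, bp), with the Toca1/Fnbp1l list on the left and the C2C12 list from 50000 cells on the right. Bars are 95% Wilson intervals, and gene-body shares lie below promoter shares in every class, with differences from -10.9 to -39.8 points.

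Within gene bodies, sites near a TSS were more often open in C2C12 cells. Of the 50 peaks under 2000 bp from a TSS, 8 were overlapped by a C2C12 peak (16.0%, interval 8.34% to 28.5%). Of the 257 at 2000 bp or more, 7 were (2.72%, interval 1.33% to 5.51%). The difference was 13.3 points (interval 5.12 to 25.9). It was 9.44 points among peaks under 300 bp wide (interval 2.03 to 23.7) and 23.4 points among wider ones (interval 5.07 to 49.7). Beside *Il17d* and *Satb1*, peaks near a TSS that C2C12 cells shared were in *Zic1* (598 bp from a TSS), *Qpct* (619 bp), which encodes glutaminyl cyclase, *H2-Bl* (685 bp) and *Cd14* (1075 bp), which encodes a coreceptor for lipopolysaccharide. The other 2 were in *Tspan13* (541 bp) and in *Lrrc3c* (1237 bp), which was named after its values had been seen. For the Toca1/Fnbp1l list the shares were 22.0% and 13.2%, and the interval of the difference held 0 (8.77 points, -1.60 to 22.5). Among peaks at least 300 bp wide, 7 of 14 near a TSS and 15 of 78 farther away were in that list, a difference of 30.8 points (interval 5.46 to 55.1), and among narrower peaks the difference was 0.497 points (interval -8.09 to 15.2). None of the 25 peaks at 50000 bp or more was overlapped by a Toca1/Fnbp1l peak. A count of 0 in 25 allows a share of up to 12%, taken as 3 in 25, and the upper Wilson limit was 13.3%.

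Most genes had 1 gene-body peak. There were 23 genes with more, of which 20 had 2 peaks, *Efcab6* and *Itga9* had 3 and *Hkdc1* had 4. The peaks of *Hkdc1*, which encodes a hexokinase, were 227, 387, 224 and 245 bp wide and spread over chr10:61848470-61865027. A C2C12 peak overlapped the last by 104 bp and the nearest Toca1/Fnbp1l peak was 132 bp from it, while the other 3 were at least 5386 bp from either list. In *Efcab6* the peaks of 549, 374 and 150 bp were at least 34769 bp from any peak of the Toca1/Fnbp1l and 50000-cell C2C12 lists, and 2186, 5021 and 2566 bp from the nearest peak of the 1000-cell C2C12 list. *Myb* was the only gene with 2 or more gene-body peaks of which each was overlapped by a Toca1/Fnbp1l peak, and in *Alpl*, *Grap2*, *Lrfn1* and *Pkd1l2*, among others, 1 of 2 peaks was. Beside *Cpne1* and *Rbm12*, peaks shared by 2 genes were listed for *Apol7b* and *Apol7e*, *1500004A13Rik* and *5830417I10Rik*, *Ttyh1* and *D030047H15Rik*, *Tnnt3* and *Prr33*, and *Scn2b* and *Gm10684*. For near-identical neighbours such as the *Apol7* genes, and for *H2-Bl* and *Cyp2d12*, how reads that map to several copies were handled is not given in the sources used here.

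By RefSeq annotation 265 of the 286 genes code for protein, 18 are long noncoding RNAs and 3 are transcribed pseudogenes. The genes were grouped by known role, with 184 in at least 1 of 13 groups and 102 in none. A group says which genes gained a site, not that they were transcribed. The shares below stand beside 14.7% and 4.89% over all gene-body peaks, and with few peaks per group they are counts and not differences between groups.

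Transcription factors and cofactors formed a large group, with 29 genes and 31 peaks. Toca1/Fnbp1l peaks overlapped 6 of the 31 and C2C12 peaks 4. Those in the Toca1/Fnbp1l list were both peaks of *Myb* and those of *Satb1*, of *Egr4*, an early growth response factor (445 bp), of *Zscan10*, a zinc finger factor of pluripotent cells (387 bp), and of *Phf21b* (221 bp). The C2C12 list held those of *Satb1*, *Zic1*, *Dmrt3*, which acts in spinal interneurons, and *Spdef*, an ETS factor of secretory epithelia. The *Zic1* peak, 431 bp wide at chr9:91259609-91260039, shared 88 bp with a C2C12 peak and was 1092689 bp from the nearest Toca1/Fnbp1l peak.

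Genes of immune and blood cells were the group with the most peaks, 34 in 30 genes. Toca1/Fnbp1l peaks overlapped 9 and C2C12 peaks 4. Beside *Myb*, *Satb1* and *Il17d*, the first set held *Oasl2*, an interferon-induced gene (369 bp), *Myo1f*, a myosin of leukocytes (286 bp), *Grap2*, a T cell adaptor (234 bp), *Prss57*, a serine protease of neutrophils (214 bp), and *Gimap1*, a GTPase of lymphocytes (182 bp). *Oasl2* lay wholly within a Toca1/Fnbp1l peak of 1134 bp. The C2C12 set held *Il17d*, *Satb1*, *Cd14* and *H2-Bl*, and in *H2-Bl* all 169 bp were shared with a C2C12 peak of 523 bp.

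Neuronal and synaptic genes had 28 peaks in 26 genes, of which 6 were in the Toca1/Fnbp1l list and 2 in the C2C12 list. The 6 were in *Cspg5*, *Hepacam*, a glial adhesion molecule (458 bp), *Oprd1*, the delta opioid receptor (447 bp), *Lrfn1*, a synaptic adhesion molecule (350 bp), *Lingo3* (317 bp) and *Prph*, the intermediate filament peripherin (243 bp). *Oprd1*, *Lrfn1*, *Lingo3* and *Prph* each lay wholly within the Toca1/Fnbp1l peak. The C2C12 list held *Cspg5* and *Rgs9*, a regulator of G protein signaling in photoreceptors and striatum (339 bp, 258 bp shared). Of 17 peaks in 13 ion channel genes, 3 were in the Toca1/Fnbp1l list and 0 in the C2C12 list. The count of 0 allows a share of up to 17.6%. The 3 included those in *Pkd1l2* (423 bp) and *Hcn2*, a pacemaker channel (223 bp). The widest of the group, in the potassium channel gene *Kcnh3* (432 bp), was in neither list, nor was that of *Hvcn1*, a voltage-gated proton channel (343 bp). Among 8 peaks of 6 genes grouped as photoreceptor and hair cell genes, 1 of *Rgs9* was the only one in either list. The next widest, in the guanylate cyclase gene *Gucy2d*, was 321 bp. The group was made from gene names and counts 2 peaks of *Gucy2d*, which is not taken here as a photoreceptor gene of the mouse.

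Ligands, receptors and their regulators had 24 peaks in 21 genes, with 5 in the Toca1/Fnbp1l list and 2 in the C2C12 list. The 5 included those in *Oprd1*, *Sema7a* (435 bp), *Il17d* and *Rspo1*, a secreted enhancer of Wnt signaling (210 bp, all shared). The C2C12 list held *Il17d* and *Tas1r2*, a subunit of the sweet taste receptor (175 bp, all shared). Metabolic enzymes had 32 peaks in 27 genes. The 4 in the Toca1/Fnbp1l list were in *B3gnt6* and *Galnt6*, which both act in O-linked glycosylation (283 and 280 bp), *Scd3*, a stearoyl-CoA desaturase (267 bp), and *Alpl*, tissue-nonspecific alkaline phosphatase (249 bp), and the 2 in the C2C12 list were in *Hkdc1* and *Qpct*. The widest of the group were in *Cyp2d12*, a cytochrome P450 (424 bp), *Hkdc1* (387 bp) and *Pla2g5*, a secreted phospholipase (380 bp), and these 3 peaks were in neither list.

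The 8 striated muscle genes had 9 peaks, of which 0 were in the 50000-cell C2C12 list. The share over all gene-body peaks was 4.89%, and a count of 0 in 9 allows up to 33.3%. The only one in the Toca1/Fnbp1l list was that of *Actn3*, the alpha-actinin of fast muscle fibers (184 bp, all shared with a peak of 858 bp). The 3 widest were in *Mybpc1* (374 bp), *Csrp3* (367 bp) and *Mybpc3* (284 bp), which encode proteins of the sarcomere and its Z-disc, and lay 24649, 32000 and 7793 bp from the nearest C2C12 peak. Germ cell genes had 7 peaks and cilia genes 9, with 1 each in the Toca1/Fnbp1l list, in *Tepp* (238 bp) and *Dnah1*, an axonemal dynein (349 bp). The 3 widest of the germ cell group were in *Ddx25* (332 bp), *Tdrd6* (265 bp) and *Sycp1*, a component of the synaptonemal complex (241 bp), and none of them was in either list. The cilia genes *Cfap77* (418 bp), *Ttll10* (413 bp) and *Ttll3* (376 bp) were not in either list, although *Cfap77* lay 178 bp from a Toca1/Fnbp1l peak and 247 bp from a C2C12 peak.

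Genes of RNA processing and decay had 10 peaks, of which 3 were in the Toca1/Fnbp1l list, in *Eftud2*, a spliceosomal GTPase (393 bp), *Rbm12* (327 bp) and *Dis3l*, a cytoplasmic exosome nuclease (184 bp). That of *Isy1*, a splicing factor (375 bp), was in neither list. Solute carriers had 8 peaks with 1 in that list, in *Slc37a3* (461 bp, 429 bp shared), whereas *Slc44a4* (338 bp) and *Slc16a14* (329 bp) were in neither. Keratin and epithelial genes had 7 peaks, with *Upk3a*, a uroplakin of bladder epithelium (369 bp, all shared), in the Toca1/Fnbp1l list, *Spdef* in the C2C12 list and the transglutaminase gene *Tgm7* (361 bp) in neither. The 106 peaks of genes in no group included 10 overlapped by Toca1/Fnbp1l peaks (9.43%) and 3 by C2C12 peaks (2.83%).

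**Figure D5:**
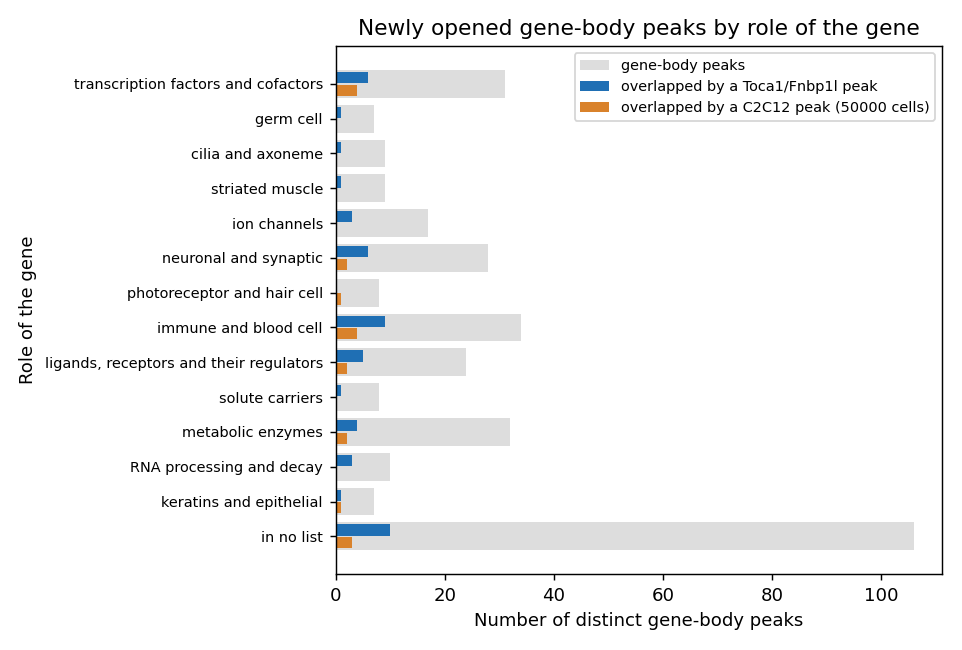
Number of distinct gene-body peaks (x axis) in each group of genes by role (y axis), as grey bars, with the number overlapped by at least 1 bp by a Toca1/Fnbp1l peak in blue and by a C2C12 peak from 50000 cells in orange. Genes can be in more than 1 group. Among the groups by role, the immune and blood cell group has the most peaks overlapped by Toca1/Fnbp1l peaks (9 of 34). For C2C12 it is level with transcription factors and cofactors (4 of 34 and 4 of 31).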

How the data were processed

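ATAC-seq libraries of C2C12 cells, donor MEFs and MEFs after NT were prepared by the authors, who deposited 1 peak list per condition at a false discovery rate of 0.01, as peak starts and ends in bp. The submitters' notes name Bowtie2 2.2.1, Picard, MACS2 2.1 and mm9. Their roles, and whether libraries of a condition were pooled before peak calling, are not given in the sources used here. Lists were assigned to conditions by list name. Gene names, gene-body marks and TSS distances were copied from the published annotation, of which 495 genes were held. Its peaks were matched to the list after NT by position, and intergenic newly opened peaks were taken from a second published list. Overlap (at least 1 bp), widths and gaps were computed from the lists, with newly opened peaks at least 5000 bp from a donor peak. Shares have 95% Wilson intervals and differences 95% Newcombe intervals, which cover counting error over peaks. For a count of 0, the share allowed was instead taken as 3 divided by the number of peaks, which differs from the upper Wilson limit. With 1 list per condition there are no replicates and no p-value is given. Overlap and interval code was first tested on simulated data. All 286 genes matched RefSeq (GRCm38.p6) by symbol or a unique synonym. Promoter windows existed for 224 (78.3%), so promoter composition was not compared over the genes. Positions of that build were given only for the promoter windows printed.

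The peaks and gene groups were chosen with earlier results of these data known. Genes were named if they had 1 of the 10 widest gene-body peaks, 1 of the 5 nearest to or farthest from a TSS, 1 of the 3 nearest to the donor limit, 3 or more gene-body peaks or a peak shared with another gene. Members of a group were also named if their peak was overlapped or 1 of the 3 widest of the group. *Plekhm2*, *Lrrc3c* and other genes said to be chosen after their values were seen are exceptions. Some genes that the rule names are not reported here. Alternatives were overlap of at least 50% of both peaks, peaks within 500 bp, a minimum width of 250 bp in every list, autosomes only, 1 peak per gene, a TSS distance of at least 2000 bp and the C2C12 list from 1000 cells. Python 3.11.15, numpy 2.4.6, pandas 2.3.3 and matplotlib 3.10.9 were used.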

Additional observations from a re-analysis of the deposited data

How the results depend on the processing

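The lower share of gene-body than of promoter peaks kept its direction under the alternatives run on it, which were overlap of 50%, neighbours up to 500 bp, the width minimum, autosomes and the TSS distance for both lists, and the 1000-cell list for C2C12. With overlap of at least 50% of both peaks, the Toca1/Fnbp1l list held 6.84% of gene-body peaks and 7.34% of genes, and the C2C12 list 1.95% of peaks. The differences from promoter peaks were then -12.7 and -14.5 percentage points. Counting neighbours up to 500 bp apart as shared, the C2C12 share was 8.47%, and with gene-body peaks at least 2000 bp from a TSS it was 2.72%. With the C2C12 list from 1000 cells it was 1.63%, and the difference from promoter peaks was -1.93 points, with an interval that held 0 (-5.36 to 0.823). A minimum width of 250 bp in every list, autosomes only and 1 peak per gene moved no value run under them past its interval. Over peaks of all widths, the interval of the difference from intergenic peaks held 0 under each alternative run on it. The cause of these moves beyond the construction of each setting was not tested. No paired analysis was possible because the libraries of a condition share 1 peak list, so no library could be left out or paired. Without read numbers, depth limits every share in an unknown way, and a site absent from a list is not shown to be closed.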
